A study of Mus musculus with 6 samples.

Results

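Expressed Zfp genes, the mouse genes whose symbol is Zfp followed by a number alone, are described here in oligodendrocyte progenitor cells given hemin or vehicle. A gene was included when its mean was at least 3 FPKM over the 3 vehicle libraries. FPKM, a fragment count scaled for transcript length and library size, is a level per length computed by the authors and summed here over the transcripts of a gene. The files hold 18743 genes, of which 351 carry such a symbol; 178 of these met the minimum and 173 did not. Zfp36, which encodes an mRNA-binding protein with another kind of finger, was left out by the rule. The vehicle level chose the genes, so it is given as a description without a test. Choosing on one group's level also favours genes that happen to be lower in the other group, and values for other ways of choosing are given beside the results.

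Oligodendrocyte progenitor cells (OPCs) are the dividing glial precursors of myelinating oligodendrocytes. They were taken from the cortex of wild-type C57BL/6 pups with magnetic beads that bind CD140a, the PDGFRα receptor, and grown for 3 days. The sample labels give postnatal day 1 and the growth protocol postnatal days 0 to 2. The vehicle libraries (n = 3) came from cells given 0.25% DMSO and the hemin libraries (n = 3) from cells given 50 µM hemin, heme with its iron oxidised, both for 12 h. The comparison asks which Zfp genes differed after hemin. Whether the replicates of a group were separate cultures is not stated, so a p-value here reflects the spread between libraries alone, and that spread may be technical.

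Most Zfp proteins bind DNA through arrays of C2H2 zinc fingers, short folds in which a pair of cysteines and a pair of histidines hold a zinc ion. Many also carry a KRAB domain, which recruits Trim28 and with it the histone methyltransferase Setdb1 to silence transposable elements and imprinted loci. Others activate genes, bind RNA or act in ribosome assembly and mitosis, and in the oligodendrocyte lineage Zfp24 and Zfp488 are known for their part in differentiation and myelination.

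The repeating unit of the family is shown for the gene with the second greatest fall (Zfp41), a KRAB gene that fell (Zfp810), the KRAB gene that rose most (Zfp948) and Zfp462. The last also fell, and its reading frame of 2495 codons had 33 matches to the finger pattern. Each line is a stretch of 63 bases of coding exon from GENCODE vM21 on GRCm38, printed along the coding strand, with the codons of the zinc-binding cysteines and histidines in capitals. The stretches lie at chr15:75618465-75618527 on the plus strand (exon 2 of 3 in the transcript used), chr9:22278999-22279061 on the minus strand (exon 8 of 8), chr17:21587193-21587255 on the plus strand (exon 6 of 6) and chr4:55009452-55009514 on the plus strand (exon 3 of 13).
Zfp41: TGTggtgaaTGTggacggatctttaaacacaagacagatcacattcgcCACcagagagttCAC
Zfp810: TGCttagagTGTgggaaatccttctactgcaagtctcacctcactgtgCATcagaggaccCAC
Zfp948: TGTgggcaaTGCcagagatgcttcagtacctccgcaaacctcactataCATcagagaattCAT
Zfp462: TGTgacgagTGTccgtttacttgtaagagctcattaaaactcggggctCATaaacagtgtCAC
The stretches were searched for by this spacing of the capitals, so it is the same in all 4 by choice. The bases between the second cysteine and the first histidine, which hold the residues that read DNA, differ. Fingers of this kind recur many times within a gene and between neighbouring genes of the family, so reads could be split among similar copies. How the authors' estimates divided them was not tested, and the values of single genes are uncertain to that extent.

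Expected counts over annotated genes summed to between 6339966 and 6390691 in the vehicle libraries and between 6463460 and 6523639 in the hemin libraries. No pair of libraries within a group agreed within sampling noise (chi-square per degree of freedom 5.58 to 23.4), so each was counted as its own sample. All 10 OPC markers were measured, and their summed level was 1260 to 1510 FPKM with vehicle and 413 to 634 FPKM with hemin. All 10 had a log2 fold change below 0, and 8 were called lower by the test described below. Summed neuron markers (7 genes) stood at 162 to 192 and 81.6 to 123 FPKM, and astrocyte markers (7 genes) at 364 to 431 and 314 to 395 FPKM. Microglia markers (7 genes) stood at 5.19 to 8.8 and 11.4 to 12.4 FPKM, endothelial and mural markers (5 genes) at 2.62 to 5.26 and 5.3 to 9.87 FPKM, and oligodendrocyte markers (7 genes) at 34.4 to 58.4 and 26.1 to 39.5 FPKM, with Mog at 0 in every library. The OPC and neuron sums were thus lower with hemin and the microglia and endothelial or mural sums higher, while the astrocyte and oligodendrocyte ranges overlapped. Of 7 neuron markers 2 were called lower, and of 7 astrocyte markers 3 lower and 1 higher. Of 4 tested microglia markers 1 was called higher. Of 4 tested endothelial or mural markers 2 were called higher and 1 had a change below 0, and their summed ranges nearly met. Median vehicle levels of these last lists were only 0.56 and 0.173 FPKM. The part of these differences in the Zfp values below was not tested. In such bulk samples fewer cells of a type and less RNA per cell cannot be told apart.

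With hemin, 41 of the 178 Zfp genes were lower and 18 were higher at an adjusted p below 0.05 in edgeR's quasi-likelihood test, with Benjamini-Hochberg adjustment over all 12779 genes tested. All 178 passed the filter on low counts. Among all genes tested 31.9% were called in either direction, 15.7% lower and 16.2% higher. Among the 9145 tested genes with the same vehicle minimum 33.6% were called, 18.7% lower and 15.0% higher. The Zfp genes were thus called about as often as other genes (33.1%), with 23.0% lower and 10.1% higher. Their median log2 fold change was -0.27, with 120 values below 0 and 58 above, against a median of 0.0 over all genes tested and -0.04 over genes with the same vehicle minimum. In FPKM the groups did not overlap for 75 Zfp genes that were lower in every hemin library and for 27 that were higher, where 32.0% and 19.7% of the genes with the same minimum separated in those directions (27.5% and 21.5% of all genes tested). With library totals alone in place of TMM factors, 56 were lower and 13 higher with a median of -0.37, and the median of all genes tested moved to -0.09. The count of falls changed when single libraries were left out. It was 22 without vehicle replicate 2, 26 without hemin replicate 2 and 27 without vehicle replicate 1, with medians of -0.27, -0.24 and -0.27. The count of rises was 10 without vehicle replicate 2.

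**Figure D1:**
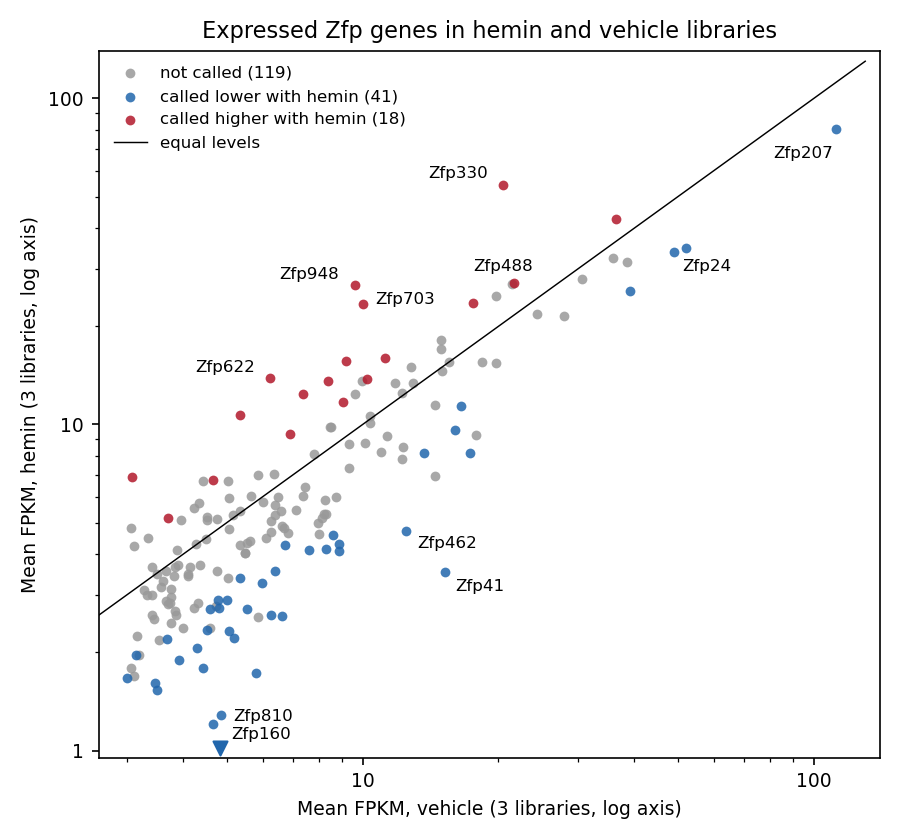
Mean FPKM of each of the 178 Zfp genes over the 3 vehicle libraries (horizontal, log axis) and the 3 hemin libraries (vertical, log axis), with the line of equal levels. Blue points are the 41 genes called lower and red points the 18 called higher by edgeR; the triangle at the lower edge is Zfp160, listed at 0 in every hemin library. More points lie under the line than above it, and Zfp207 has the highest level in both groups.

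The shift of the list differed between the hemin libraries. Relative to each gene's vehicle mean, the median Zfp gene stood at -0.16 on the log2 scale in hemin replicate 1, -0.30 in replicate 2 and -0.37 in replicate 3. The medians of genes with the same vehicle minimum were -0.05, -0.04 and -0.04 in those libraries. The numbers of Zfp genes below their vehicle mean were 103, 121 and 120 of 178 (57.9, 68.0 and 67.4%). Of genes with the same vehicle minimum 54.0, 52.9 and 53.3% were below it in those libraries. In vehicle replicates 1, 2 and 3, 98, 69 and 99 of the 178 were below it (55.1, 38.8 and 55.6%). Hemin replicate 1 was thus close to vehicle replicates 1 and 3 by this number. Zfp genes held 0.894, 0.911 and 0.897% of the counts in the vehicle libraries and 0.828, 0.74 and 0.707% in the hemin libraries, so every hemin library was below every vehicle library. By the Zfp median, the number below the vehicle mean and the share of counts, hemin replicate 1 was nearest to the vehicle libraries, and without it 56 genes were lower and the median was -0.36.

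**Figure D2:**
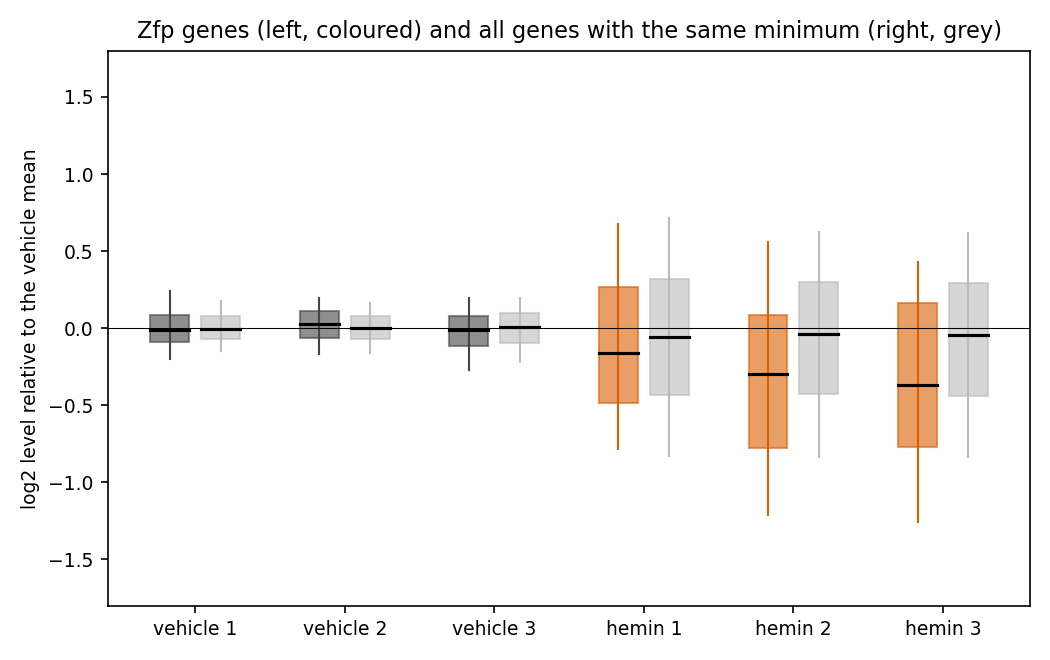
Level of the 178 Zfp genes (left box of each pair, coloured) and of all genes with the same vehicle minimum (right box, grey) in each library, on the log2 scale relative to the gene's vehicle mean. The black bar is the median, the box spans the 25th to 75th percentile and the line the 10th to 90th. The Zfp medians in the hemin libraries are -0.16, -0.30 and -0.37, while those of the other genes stay at -0.05 or nearer to 0.

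The choice of genes by vehicle level bore on the counts. When the minimum of 3 FPKM was applied to the mean of all 6 libraries, 14 genes dropped out and 4 came in, giving 168. Of those, 33 were lower and 20 higher, with a median of -0.21 against -0.01 for all genes so chosen. With the minimum applied to the hemin libraries, 43 genes dropped out and 10 came in, leaving 145. Of those, 19 were lower and 22 higher, with a median of -0.03 against 0.03 for all genes so chosen, of which 15.3% were lower and 18.3% higher. Genes were also chosen on a pair of vehicle libraries and the change taken against the remaining one. That change was the mean log2(FPKM + 1) with hemin less that of the left-out library, and not the edgeR fit. On that scale limma with all libraries gave medians of -0.29 for the Zfp genes and -0.09 for genes with the same vehicle minimum. Against the left-out replicates 1, 2 and 3 the Zfp median was -0.27, -0.28 and -0.26. The medians of all genes chosen the same way were -0.10, -0.10 and -0.08.

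Of the 10 most abundant Zfp genes, 4 were called lower, 1 was called higher and 5 missed the threshold. Zfp207, whose product binds the spindle checkpoint protein Bub3 and microtubules in mitosis, stood at 106, 116 and 113 FPKM with vehicle and 86.3, 80.8 and 74.3 FPKM with hemin. Every hemin library was below every vehicle library, and the log2 fold change was -0.41 ± 0.10 (SE; edgeR adjusted p = 0.0186). The call was lost without vehicle replicate 2 (edgeR adjusted p = 0.0768), without vehicle replicate 3 (0.0600) and without hemin replicate 2 (0.0608). Zfp664 followed, at 51.1, 52.3 and 52.8 FPKM with vehicle and 35.8, 35.5 and 33.3 FPKM with hemin. The libraries of each group lay close together, and it fell by 0.53 on the log2 scale (SE 0.09; edgeR adjusted p = 0.00426). Zfp422 fell by 0.55, from 39.1 ± 1.98 to 25.7 ± 1.17 FPKM (SD, n = 3; edgeR adjusted p = 0.00479). Of the other 6 among the 10 highest besides Zfp24, which is described below, Zfp706 was the only one called higher (36.5, 34.9 and 37.9 FPKM with vehicle; 42.8, 42.2 and 42.9 FPKM with hemin). Its groups did not overlap, but its call (log2 0.28, edgeR adjusted p = 0.0384) ended without each library except hemin replicate 1, at edgeR adjusted p of 0.0519 to 0.141, and with library totals alone (0.112), with limma on log2(FPKM + 1) (0.071) or log2(FPKM + 0.1) (0.072), with no filter on low counts (0.093) and in the fit blocked by replicate number (0.0661). Zfp91, a ubiquitin ligase of NF-κB signalling, missed the threshold with 38.6 and 31.6 FPKM (edgeR adjusted p = 0.21). Zfp106, an RNA-binding protein needed by motor neurons, also missed it with 28 and 21.5 FPKM (0.108), though each passed without hemin replicate 1 (0.0130 and 0.0148). Zfp428, Zfp326, a subunit of a complex that couples transcription elongation with splicing, and Zfp260 had groups that overlapped.

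Among called genes with separate groups, the 10 greatest falls were those of Zfp160, Zfp41, Zfp101, Zfp810, Zfp329, Zfp462, Zfp763, Zfp318, Zfp239 and Zfp687. Zfp160, a KRAB gene with 18 finger matches, had 5.82, 3.52 and 5.19 FPKM with vehicle, from 198, 121 and 179 expected counts, and was listed at 0 in all 3 hemin libraries. Against a floor of 3 counts per hemin library it was at least 53.0-fold lower. A 0 in these files can be a failed estimate, since 50 genes were at 0 in 1 hemin library with at least 100 counts in another, and 49 likewise among vehicle libraries. Genes at 0 in every hemin library with at least 100 counts in every vehicle library numbered 2, Zfp160 among them. Zfp41 stood at 17.2, 15.3 and 13.2 FPKM with vehicle and 4.53, 3.41 and 2.64 FPKM with hemin. The lowest vehicle library was above the highest hemin library, and Zfp41 fell 4.13-fold (log2 -2.05 ± 0.23 SE, edgeR adjusted p = 0.00106). Zfp810, another KRAB gene, had 4.61, 5.75 and 4.19 FPKM with vehicle and 1.10, 1.30 and 1.48 FPKM with hemin. Its groups were likewise apart, with a 3.62-fold fall (log2 -1.86 ± 0.20 SE, edgeR adjusted p = 0.00101).

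Zfp462, a protein of the nervous system whose loss in people impairs development and which acts in heterochromatin, had the smallest adjusted p of the Zfp genes. It stood at 12.6, 13 and 11.8 FPKM with vehicle and 4.10, 5.17 and 4.84 FPKM with hemin. The spread within each group was small beside the gap, and it fell 2.57-fold (log2 -1.36 ± 0.10 SE, edgeR adjusted p = 0.000278). Zfp318, which in B cells lets transcription pass to the IgD exons, went from 5.05 ± 0.544 to 2.32 ± 0.558 FPKM (SD, n = 3). Zfp687, a partner of the chromatin reader Zmynd8, went from 6.25 ± 1.25 to 2.6 ± 0.854 FPKM. The KRAB genes Zfp101 and Zfp763 fell 3.70-fold and 2.47-fold. Zfp329 and Zfp239 fell 3.21-fold and 2.34-fold, with calls that were lost when some single libraries were left out. Zfp329 had 0.64 FPKM in hemin replicate 3 against 2.24 and 2.31 in the others, and its edgeR adjusted p of 0.0212 became 0.0588 without vehicle replicate 1 and 0.0631 without vehicle replicate 2. For Zfp239 the edgeR adjusted p of 0.0222 became 0.0781 without vehicle replicate 2 and 0.0694 without hemin replicate 2.

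The 10 greatest rises were those of Zfp948, Zfp330, Zfp703, Zfp622, Zfp711, Zfp451, Zfp9, Zfp617, Zfp180 and Zfp84. Zfp948, a KRAB gene, stood at 9.37, 8.98 and 10.4 FPKM with vehicle and 21.8, 29.6 and 29.1 FPKM with hemin. All hemin libraries were above all vehicle libraries, and it rose 2.88-fold (log2 1.53 ± 0.14 SE, edgeR adjusted p = 0.000569). Zfp330, a nucleolar protein without a C2H2 match, had 20.4, 21.6 and 19.3 FPKM with vehicle and 65.4, 52.7 and 45.1 FPKM with hemin. The vehicle libraries were close together and the hemin libraries spread more widely above them, with a 2.77-fold rise (log2 1.47 ± 0.17 SE, edgeR adjusted p = 0.00119). Zfp703, a transcriptional corepressor also without a C2H2 match, had 11, 8.92 and 10.2 FPKM with vehicle and 31.9, 18.5 and 19.8 FPKM with hemin. Hemin replicate 1 was well above the other hemin libraries, and the rise was 2.44-fold (log2 1.28 ± 0.24 SE, edgeR adjusted p = 0.00699).

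Zfp622, a factor of large ribosomal subunit maturation in the cytoplasm, stood at 6.13, 6.37 and 6.19 FPKM with vehicle and 14.7, 13 and 13.9 FPKM with hemin. Both groups were tight, and it rose 2.31-fold (log2 1.21 ± 0.12 SE, edgeR adjusted p = 0.000841). Zfp711, an X-linked partner of the histone demethylase Phf8, went from 3.08 ± 0.786 to 6.90 ± 1.94 FPKM (SD, n = 3). Zfp451, which promotes the joining of SUMO chains to proteins, went from 7.37 ± 1.07 to 12.4 ± 1.01 FPKM. The KRAB genes Zfp9, Zfp617 and Zfp84 rose 2.08-fold, 1.77-fold and 1.5-fold, and Zfp180 rose 1.68-fold. The edgeR adjusted p of Zfp9 (0.0161) was 0.0537 without vehicle replicate 1, and that of Zfp180 (0.0181) was 0.0584 without vehicle replicate 2. Of the 59 called Zfp genes, 30 were called without every library in turn, 21 lower and 9 higher.

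**Figure D3:**
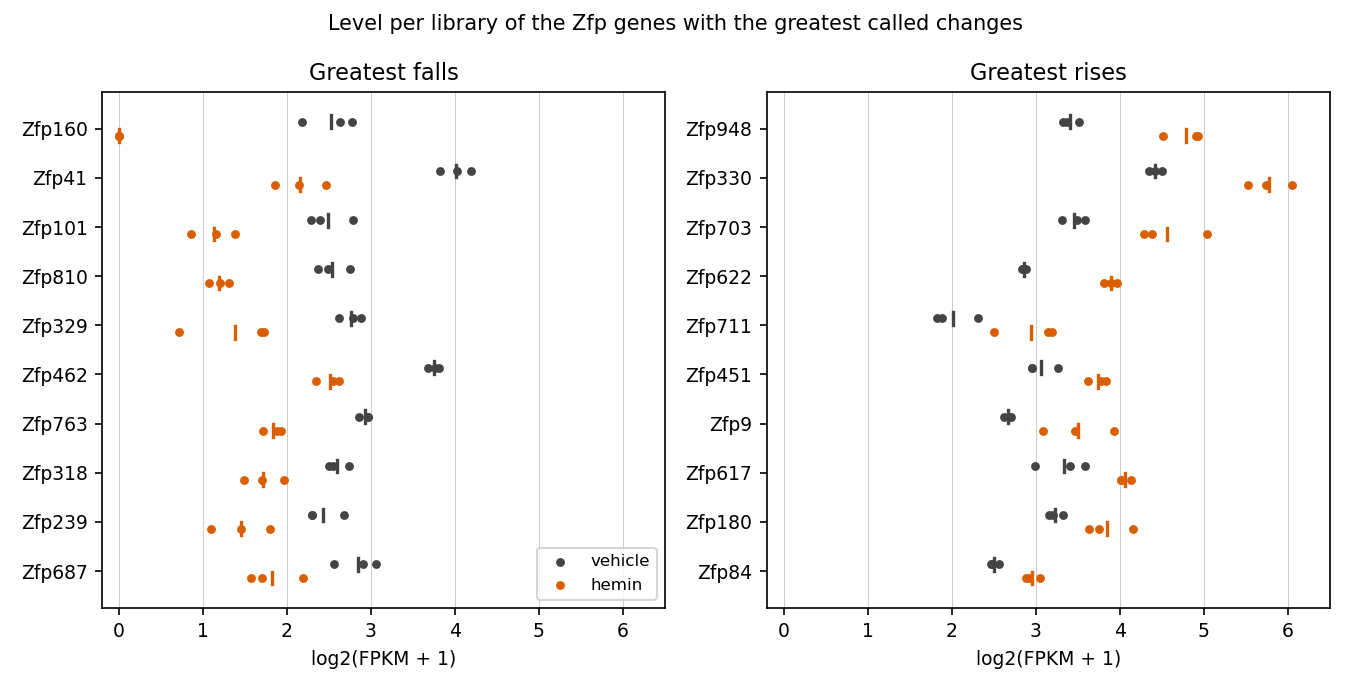
Level in each library, as log2(FPKM + 1), of the 10 greatest called falls (left) and the 10 greatest called rises (right) among Zfp genes with separate groups. Points are libraries (dark grey vehicle, orange hemin) and short bars are group means of the log values. In each gene the points of the groups do not overlap; Zfp160 lies at 0 in all hemin libraries.

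Of further genes listed for known roles, some of them in glia, 2 were called lower, 1 was called higher and 6 missed the threshold. Zfp24, which oligodendrocytes need to make myelin, stood at 48.6, 51.6 and 46.6 FPKM with vehicle and 35.8, 33.9 and 31.4 FPKM with hemin. Every hemin library was lower, by 0.48 on the log2 scale (SE 0.10; edgeR adjusted p = 0.0101), and the call was lost by a narrow margin without vehicle replicate 2 (0.0503). Zfp488, an oligodendrocyte factor that works with Olig2, stood at 20.6, 22.3 and 22.2 FPKM with vehicle and 23.6, 31.4 and 26.5 FPKM with hemin. The groups did not overlap and it was called higher (log2 0.37 ± 0.11 SE, edgeR adjusted p = 0.042). That call ended without vehicle replicate 1 (0.142), vehicle replicate 2 (0.11), vehicle replicate 3 (0.0802), hemin replicate 2 (0.123) or hemin replicate 3 (0.0582). It also ended with library totals alone (0.1), with no filter on low counts (0.0805) and with limma on log2(FPKM + 1) (0.0861) or log2(FPKM + 0.1) (0.0893). Zfp704 went from 2.62, 4.91 and 2.87 FPKM to 1.92, 1.57 and 1.33 FPKM and was called lower (log2 -1.05 ± 0.27 SE, edgeR adjusted p = 0.0232). It was not called without vehicle replicate 2 (0.0557), hemin replicate 2 (0.0736) or hemin replicate 3 (0.0667).

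The other 6 of these genes did not pass. Zfp365, a Disc1-binding protein without a C2H2 match, had 18.8, 18.7 and 21.8 FPKM with vehicle and 32.2, 19.1 and 22.7 FPKM with hemin, so the groups overlapped and hemin replicate 1 stood apart (edgeR adjusted p = 0.203). Zfp281, a repressor known from pluripotent cells, had 12.8 ± 0.410 and 15.0 ± 1.19 FPKM (SD, n = 3; edgeR adjusted p = 0.088). Zfp521, a factor of early neural fate, Zfp57, which keeps methylation at imprinted loci, Zfp148, a binder of GC-rich promoters, and Zfp143, a promoter factor in chromatin loops, had groups that overlapped. Their edgeR adjusted p lay between 0.239 and 0.842. For Zfp521 an approximate 95% interval of the log2 fold change ran from -0.42 to 0.59, and for Zfp148 from -0.11 to 0.29. These intervals were taken from the standard error with a normal quantile. With 3 libraries a group they are narrower than edgeR's test would give.

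The Zfp genes were divided by their longest reading frame in GENCODE vM21, all 178 having one. A KRAB A box, called when at least 9 of 16 positions matched, was found in 82 and not in 96, and 175 had at least 1 C2H2 match. Of all genes with the same vehicle minimum 18.7% were lower and 15.0% higher. Among the 82 KRAB genes 21 were lower (25.6%) and 5 higher (6.1%), with a median log2 fold change of -0.34 (-0.43 with library totals alone). Among the other 96, 20 were lower (20.8%) and 13 higher (13.5%), with a median of -0.14 (-0.23 with library totals alone). The classes differ in other respects: the median vehicle level was 5.12 FPKM in KRAB genes and 7.89 FPKM in the others, and the median number of finger matches was 12 and 8. With the minimum applied to the hemin libraries the medians were -0.14 for 60 KRAB genes, with 8 lower and 7 higher, and 0.06 for 85 others, with 11 lower and 15 higher. Of all genes so chosen 15.3% were lower and 18.3% higher. No test of the difference between the classes was run. By finger matches, the 18 genes with 0 to 2 had 5 lower (27.8%) and 4 higher (22.2%) with a median of -0.11. The 28 genes with 16 or more had 9 lower (32.1%) and 0 higher with a median of -0.41. Between them, genes with 3 to 6 (27 genes), 7 to 10 (46 genes) and 11 to 15 matches (59 genes) had medians of -0.23, -0.26 and -0.27. In that order 5, 8 and 14 were lower (18.5, 17.4 and 23.7%) and 4, 1 and 9 were higher (14.8, 2.17 and 15.3%). These classes are small, and differences between them were not tested. Over the KRAB genes alone the median was -0.31 for the 23 with 10 or fewer matches and -0.39 for the 59 with more. Over the genes without a KRAB A box it was -0.14 for the 68 with 10 or fewer and -0.17 for the 28 with more.

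**Figure D4:**
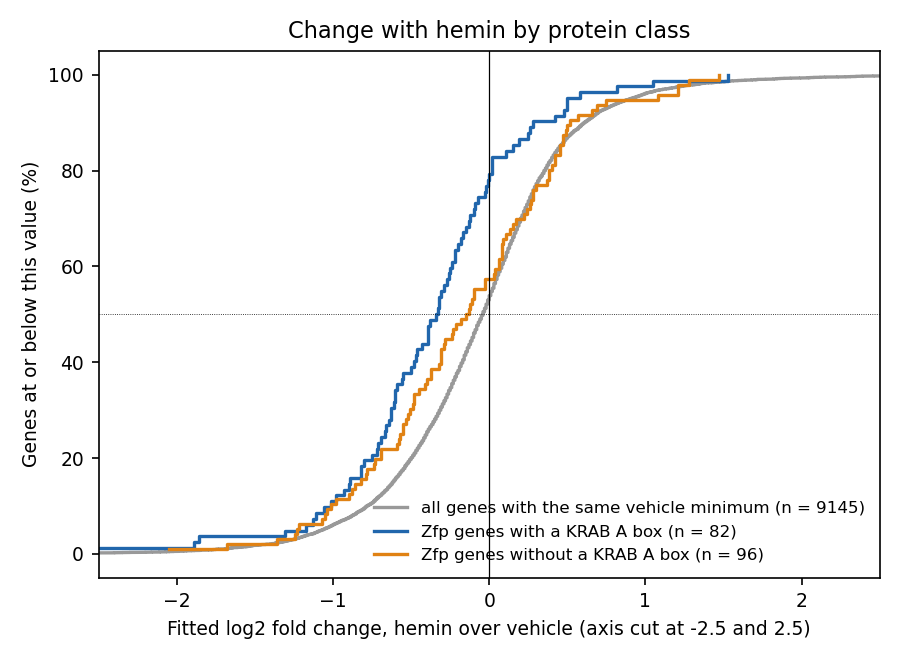
Share of genes (vertical, percent) whose fitted log2 fold change with hemin is at or below the value on the horizontal axis, for all 9145 tested genes with the same vehicle minimum (grey), the 82 Zfp genes with a KRAB A box (blue) and the 96 without one (orange). The curves cross the dotted line at 50% at -0.04, -0.34 and -0.14, and the blue curve lies left of the grey one over most of the range; values beyond the axis limits of -2.5 and 2.5, such as that of Zfp160, are not drawn.

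Of 36 genes for partners of KRAB proteins and the silencing they recruit, 7 were called lower and 4 higher. They were thus called about as often as all genes tested (30.6% and 31.9%). The median was 0.09 (-0.0 with library totals alone), with 15 values below 0 and 21 above. Trim28, the corepressor that KRAB domains bind, stood at 85.7, 87.5 and 93.4 FPKM with vehicle and 61.0, 72.8 and 77.3 FPKM with hemin. All hemin libraries were lower, but it missed the threshold (log2 -0.29 ± 0.10 SE, edgeR adjusted p = 0.056). Setdb1, the histone methyltransferase that Trim28 recruits, stood at 17.8, 19.9 and 18.2 FPKM with vehicle and 12.4, 12.5 and 10.2 FPKM with hemin. It was lower in every hemin library (log2 -0.62 ± 0.12 SE, edgeR adjusted p = 0.00887). Uhrf1, which guides maintenance DNA methylation in dividing cells, went from 60.5 ± 1.43 to 25.9 ± 3.65 FPKM (SD, n = 3), and Cbx5, a heterochromatin protein, from 72.5 ± 6.71 to 35.0 ± 3.20 FPKM. Their log2 fold changes were -1.19 and -1.0 (edgeR adjusted p = 0.000468 and 0.000727). Atf7ip, which stabilises Setdb1, rose from 5.92 ± 0.518 to 11.2 ± 0.478 FPKM (log2 0.97, edgeR adjusted p = 0.00153). Mphosph8, part of the HUSH silencing complex, was called higher (log2 0.48, edgeR adjusted p = 0.0259), though not without vehicle replicate 1, vehicle replicate 3 or hemin replicate 2.

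Related genes outside the list were counted in the same fit, where 15.7% of all genes tested were lower and 16.2% higher. The lists are short and were not tested against that share. Of the 173 Zfp genes below the vehicle minimum 135 passed the filter, with 16 lower, 7 higher and a median of -0.23. In 127 of the 169 with a reading frame a KRAB A box was found. Among them Zfp324 went from 2.37 ± 0.206 to 0.410 ± 0.171 FPKM (SD, n = 3) and Zfp282 from 2.46 ± 0.252 to 1.07 ± 0.0751 FPKM. Zfp972 rose from 2.66 ± 0.437 to 8.34 ± 0.699 FPKM and Zfp819 from 0.157 ± 0.0577 to 0.777 ± 0.22 FPKM. Of 35 tested Zbtb genes, whose proteins join fingers to a BTB domain, 9 were lower and 5 higher, with a median of 0.11 (0.01 with library totals alone). Zbtb11 stood at 5.84, 5.09 and 5.38 FPKM with vehicle and 16.9, 21.4 and 18.2 FPKM with hemin, a rise of 3.59-fold (log2 1.84 ± 0.12 SE, edgeR adjusted p = 0.000199). Zbtb2 rose 3.41-fold, while Zbtb12 fell 2.25-fold and Zbtb5 2.07-fold. The Zkscan genes had 1 lower (Zkscan8, log2 -0.97) and 0 higher of 9 tested, with a median of -0.27, the same as that of the Zfp list. The Zscan genes had 2 lower (Zscan22, 1.81-fold, and Zscan12, 3.00-fold) and 1 higher (Zscan21, 1.36-fold) of 9, with a median of -0.21. Zfp symbols with further letters had 4 lower and 3 higher of 27, with a median of -0.08. Among the last, Zfp512b fell 2.45-fold and Zfp322a 1.69-fold, while Zfp729b rose 1.63-fold and Zfp804a 2.40-fold. The calls of Zkscan8, Zscan22, Zscan12, Zscan21 and Zfp322a were lost when some single libraries were left out. Zkscan8 was not called without vehicle replicate 1 or hemin replicate 2, and Zscan22 without vehicle replicate 2. Zscan12 and Zfp322a were not called without vehicle replicate 1, vehicle replicate 2, hemin replicate 2 or hemin replicate 3, and Zscan21 without any of these or hemin replicate 1. Zscan12 was at a low level, with 0.64, 0.39 and 0.31 FPKM with vehicle and 0.16, 0.1 and 0.14 FPKM with hemin. It was not called by DESeq2 or either limma fit. Zscan21 was not called with library totals alone, by either limma fit or with no filter on low counts.

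Zfp genes often lie side by side in the genome. In the RefSeq gene order of GRCm38.p6, 40 of them formed 23 pairs of adjacent protein-coding genes. The fitted changes had the same sign in 12 pairs and opposite signs in 11, and in 0 pairs were both genes called.

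Promoter windows from RefSeq on GRCm38.p6, 250 bases before to 50 bases after a start, were found for 146 of the 178 genes (181 windows) and compared with all 32851 windows. Both strands were searched, and matches to different motifs may overlap. The windows of Zfp810, which fell, and of Zfp948 and Zfp330, which had the 2 greatest rises, are printed for the 250 bases before the start, along the direction of transcription. They lie at chr9:22307639-22307888 (minus strand), chr17:21566728-21566977 (plus strand) and chr8:82774146-82774395 (minus strand). Capitals mark matches, on either strand, to the GC box GGGCGG, the CCAAT box, the ETS letters CCGGAAG, the CRE core TGACGT or the antioxidant response element TGACNNNGC.
Zfp810: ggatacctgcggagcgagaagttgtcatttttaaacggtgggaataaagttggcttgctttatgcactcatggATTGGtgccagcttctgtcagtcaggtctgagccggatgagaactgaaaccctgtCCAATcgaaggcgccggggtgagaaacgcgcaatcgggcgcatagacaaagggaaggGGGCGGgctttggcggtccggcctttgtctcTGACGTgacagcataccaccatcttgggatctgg
Zfp948: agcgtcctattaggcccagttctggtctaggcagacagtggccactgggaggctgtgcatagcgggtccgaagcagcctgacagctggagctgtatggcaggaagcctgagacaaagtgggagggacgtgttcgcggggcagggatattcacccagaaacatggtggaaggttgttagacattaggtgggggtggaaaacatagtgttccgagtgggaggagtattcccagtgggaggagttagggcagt
Zfp330: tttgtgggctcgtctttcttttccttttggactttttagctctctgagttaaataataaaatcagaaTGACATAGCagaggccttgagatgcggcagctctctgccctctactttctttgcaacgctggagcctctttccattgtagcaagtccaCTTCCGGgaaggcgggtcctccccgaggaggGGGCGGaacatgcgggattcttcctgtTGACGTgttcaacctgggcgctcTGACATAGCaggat
Zfp330 had 5 matches, 2 of them to the antioxidant response element, and Zfp810 had 4. Zfp948, with the greatest rise, had 0. A GC box was in 51.9% of Zfp windows and 35.7% of all windows, CCAAT in 45.3% and 37.4%, the ETS letters in 19.9% and 8.86%, and the CRE core in 16% and 7.51%. The letters TATAAA were in 8.84% and 13.6%, the antioxidant response element in 13.8% and 12.4%, and the heat shock element in 0.552% and 0.603%. Zfp windows were also richer in G and C (median 56.3% and 52.7%) and in CpG (median 16 and 7 per window), and motif shares were not adjusted for this. Among the 40 windows of genes called lower and the 12 of genes called higher, the antioxidant response element was in 3 and 4, the CRE core in 3 and 3, the ETS letters in 7 and 5, the GC box in 16 and 7, CCAAT in 20 and 5, TATAAA in 5 and 1 and the heat shock element in 0 and 0. With 12 windows on one side, no order is read from these counts. A match is a description of the letters and not a binding site.

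At the edge of the vehicle minimum, Zfp667 (3.01 FPKM), Zfp53 (3.06 FPKM) and Zfp516 (3.07 FPKM) were just inside, with hemin means of 1.67, 1.79 and 4.81 FPKM. Zfp189 (2.99 FPKM), Zfp808 (2.97 FPKM) and Zfp882 (2.96 FPKM) were just outside, with hemin means of 3.69, 0.653 and 0.743 FPKM. Besides Zfp160, 2 Zfp genes chosen after their values were seen were listed at 0 in a single library. Zfp445, a KRAB regulator of imprinting, had 10.6, 0.0 and 11.8 FPKM with vehicle and 8.02, 7.85 and 3.47 FPKM with hemin. Zfp26 had 3.22, 5.45 and 3.67 FPKM with vehicle and 5.29, 0.0 and 5.16 FPKM with hemin. Neither was called, and the counts of calls without these genes and Zfp160 were 40 lower and 18 higher.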

How the data were processed

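RNA was profiled in 3 vehicle and 3 hemin samples of cultured OPCs, grouped by sample titles. Bowtie 0.12.2 and RSEM (no version) are listed in the submitters' processing notes, as are mm8 and mm9 without saying which was used. The annotation, strandedness and read filters were not given in those sources. Per the file headers, the deposited tables of annotated transcripts hold expected counts (the authors' estimates per transcript, not scaled for depth) and FPKM (scaled by the authors for length and library size). Tables list only values above 0, so an absent gene was set to 0. Tables of unannotated features were not used here.

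Transcripts were summed to genes by gene identifier. Of 18743 genes in any library, 18711 matched a symbol in the RefSeq table of GRCm38.p6 and 32 did not; 16 identifiers were matched through transcript accessions. Expected counts were rounded. In R 4.3.3, edgeR 4.0.16 (filterByExpr by group, TMM, glmQLFit and glmQLFTest, two-sided, no covariates) tested hemin against vehicle, adjusted over 12779 genes and called at an adjusted p below 0.05. The biological coefficient of variation was 0.208. The standard error is the log2 fold change divided by the square root of F. The genes, lists and tests were chosen with earlier results of these data known. Named are the 10 highest genes with vehicle, the 10 greatest called falls and rises with separate groups, the 3 genes on either side of the minimum, genes fixed for known roles, the 2 smallest p in each direction of each other list, and Trim28 and Setdb1. Alternatives were RLE factors, library totals, DESeq2 1.42.0, limma 3.58.1 on log2(FPKM + 1) and log2(FPKM + 0.1), no filter on low counts, the replicate number as a block, each library left out, and other minimum levels. C2H2 matches and KRAB A boxes were counted in the longest reading frame per gene in GENCODE vM21.

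On simulated data with the real means and spread (12595 genes), 56% of genes changed 2-fold were recovered by edgeR and 96% of those changed 4-fold, and 6.75% of its calls were false. Far fewer genes were changed there than were called in the real data, and only genes above a minimum count were changed. These shares therefore need not hold for the real comparison. Depth was 6339966 to 6523639 expected counts per library. The floor of 3 counts reflects counting error alone, because the reads were PCR-amplified and the labels name no molecular identifiers.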

Additional observations from a re-analysis of the deposited data

How the results depend on the processing

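Leaving out single libraries moved the number of Zfp genes called lower between 22 and 56 (41 with all libraries), the number called higher between 10 and 19 (18), and the median log2 fold change between -0.36 and -0.22 (-0.27). A vehicle minimum of 5 FPKM left 111 genes with 26 lower. A minimum of 3 FPKM over the hemin libraries left 145 genes with 19 lower, 22 higher and a median of -0.03. Of all genes so chosen 15.3% were lower and 18.3% higher. Fewer genes entered in both settings, and in the second the choice rested on the hemin level in place of the vehicle level. RLE factors, library totals alone, DESeq2, both limma fits, no filter on low counts, and a minimum of 1 FPKM with vehicle or of 3 FPKM over all 6 libraries kept both counts within 1.5 times. Under library totals alone rises made up 18.8% of called Zfp genes against 30.5%, and 39.9% against 50.8% of all called genes. Of 533 alternative values for 41 named Zfp genes, 484 kept their side of the threshold, 37 lost the call and 12 gained one. Where either fit called the gene, 0 changed direction. Some uncalled values among the 484 did change sign, such as that of Zfp428 (-0.1, and 0.04 without vehicle replicate 3). The restriction to genes with a C2H2 match (41 lower, 16 higher) and the removal of genes listed at 0 (40 lower, 18 higher) were added after seeing the data. Same-numbered vehicle and hemin libraries deviated together only weakly (r = 0.0631, 0.1 and 0.157 across genes), so the numbers were not taken as pairs; each library did correlate best with its own number, as a hint only. With the replicate number as a block, 42 were lower and 17 higher with a median of -0.30, and 53 of the 59 called genes were called again, the exceptions being Zfp579, Zfp27, Zfp706, Zfp655, Zfp623 and Zfp512. DESeq2 called all 59 again on the same counts, though on the simulated data 16.3% of its calls were false against 6.75% for edgeR. The planned division by RefSeq proteins was not run as written, and GENCODE reading frames were used. With 3 libraries a group, 2-fold changes were recovered only in part on simulated data with far fewer changed genes. The share recovered in the real data is not known, and small changes may have been missed.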
